A study of Homo sapiens with 13 samples.

Results

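Interferon-stimulated effectors are the proteins through which a cell exposed to interferon acts on a virus, and 41 of their genes are described here across siRNA libraries of LNCaP-abl cells. The genes were chosen by symbol from a fixed list that leaves out the IFIT and OAS families, the RNA sensors and the signalling factors. Of the 41 symbols, 39 had a row among the 22613 gene entries of each library, and IFI16 and SAMD9L were not analysed here. LNCaP-abl is a prostate cancer line derived from LNCaP that grows without androgen. All cells were grown without phenol red in charcoal-stripped serum, at passages from 53 to 60, and were harvested 72 h after transfection.

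The groups were cells given siRNA pools against FOXM1, FOXA1, BRCA1, BRCA2, CTCF, EED, EZH2, KDM1A, MALAT1, PCAT1, RAD21 or SMARCA4 (siFOXM1 and so on), and cells given the control labelled siControl2. Each of the 13 groups was 1 RNA-seq library of 1 cell line. There is no replicate error, no test between libraries and no p-value, and every difference below describes these libraries. Levels are FPKM, that is, sequenced fragments corrected for transcript length and library size. Differences from siControl2 are on the log2(FPKM + 1) scale, on which changes of weakly expressed genes come out too small. At least 2-fold means a difference of at least 1 on that scale. All 12 comparisons share the 1 control library, so a low or high value there enters each of them.

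Type I and type III interferons signal through receptor-bound kinases to transcription factors, STAT2 and IRF9 among them, that bind interferon-stimulated response elements near the start of their target genes. The products block virus entry, degrade or sense viral RNA, deplete nucleotides, attach the ubiquitin-like protein ISG15 to other proteins, or hold new virus at the membrane. In epithelial cells most of these genes are kept at low levels until interferon or intracellular double-stranded nucleic acid is sensed.

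The core of the response element, GAAA and GAAA with any 2 bases between them, or its reverse complement, TTTC and TTTC spaced alike, was searched on both strands in RefSeq promoter windows of build GRCh38.p14, from 250 bases before to 50 bases after each gene start. Of the 41 genes, 35 had a window, and 23 of these held the core in at least 1 window, against 4.38% of the 27305 genes in the table. Matches may overlap each other or the other motif searched. Stretches lying before the gene start are shown for genes with different patterns over the libraries, with each match in capitals, 5′ to 3′ along the gene. The first 4 are genes that were high in siFOXM1, siFOXA1 and further libraries.
IFI6, chr1:27672251-27672373, minus strand: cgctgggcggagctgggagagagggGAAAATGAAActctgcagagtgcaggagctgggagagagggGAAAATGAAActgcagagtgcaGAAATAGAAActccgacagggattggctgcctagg
ISG15, chr1:1013359-1013424, plus strand: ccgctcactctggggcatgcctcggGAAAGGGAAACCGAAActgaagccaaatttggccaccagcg
IFI27, chr14:94110603-94110675, plus strand: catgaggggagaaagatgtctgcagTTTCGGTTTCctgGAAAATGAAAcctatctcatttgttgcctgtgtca
BST2, chr19:17405720-17405785, minus strand: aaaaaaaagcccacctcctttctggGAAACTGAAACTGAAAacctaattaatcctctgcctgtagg

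The next 3 are genes that were at least 2-fold higher in siFOXM1, with or without siFOXA1, and in no other library on the scale used. With a pseudocount of 0.1, RTP4 was also past 2-fold in siPCAT1 (1.45) and siBRCA2 (1.31).
IFITM3, chr11:320861-320937, minus strand: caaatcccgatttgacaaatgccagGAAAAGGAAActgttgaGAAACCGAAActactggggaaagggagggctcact
RTP4, chr3:187368318-187368384, plus strand: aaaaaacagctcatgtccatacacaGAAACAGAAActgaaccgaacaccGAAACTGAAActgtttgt
PARP14, chr3:122680785-122680838, plus strand: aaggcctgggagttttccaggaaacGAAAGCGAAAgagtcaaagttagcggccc

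The last pair are genes that were not 2-fold higher in any library on the scale used. IFI44L lay so low that this depends on the pseudocount. It was at 0.473 FPKM in siFOXM1 and 0.0988 in siFOXA1, against 0.00273 in siControl2, and with a pseudocount of 0.1 its difference was 2.48 in siFOXM1 and 1.11 in siBRCA2.
EPSTI1, chr13:42992257-42992316, minus strand: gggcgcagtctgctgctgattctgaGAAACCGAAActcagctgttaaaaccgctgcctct
IFI44L, chr1:78620259-78620409, plus strand: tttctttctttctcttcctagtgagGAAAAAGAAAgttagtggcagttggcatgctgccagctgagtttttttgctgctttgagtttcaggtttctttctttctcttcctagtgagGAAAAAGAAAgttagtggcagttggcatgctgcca

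The core was thus present in genes of every pattern. It stood in all 8 of the genes with a window that were higher in further libraries, in 12 of 20 that were higher only in siFOXM1, siFOXA1 or both, and in 3 of 5, IFI44L included, that were 2-fold higher in no library. The gamma-activated site TTCNNNGAA, searched in the same windows, was held by 10 of the 35 genes, against 9.38% of all genes. A match is a description of these letters and no measurement of binding.

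The siFOXM1 library had 31 effectors at least 2-fold above siControl2, where 2.59% of the 15780 genes that passed the filter on low values were. That filter, a mean of at least 0.5 FPKM over the 13 libraries, was passed by 35 effectors. UBE2L6, TRIM22 and RTP4 passed it only through their siFOXM1 and siFOXA1 values, so they had to differ. Over all 39 listed effectors with no filter, 33 were at least 2-fold higher, against 2.46% of all entries, and the median difference was 2.04. Over all filtered genes the median was 0.022. In bulk RNA, a high level in few cells and a low level in many cannot be told apart.

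The siFOXA1 library came second, with 20 effectors at least 2-fold higher, against 3.52% of all genes. With no filter these were 20 of the 39 listed, against 3.14% of all entries. The siFOXA1 median over the 39 was 1.02, beside 0.018 over all filtered genes. In all 12 knockdowns 0 effectors were at least 2-fold lower than siControl2. With a pseudocount of 0.1, GBP1 in siEED (-1.23) and BST2 in siEZH2 (-1.55) and siMALAT1 (-1.12) were. With the pseudocount of 1, 3.6% of all genes were 2-fold lower in siFOXM1, 4.22% in siFOXA1, 0.944% in siBRCA1, 0.76% in siBRCA2, 2.85% in siCTCF, 0.741% in siEED, 3.09% in siEZH2, 1.55% in siKDM1A, 1.57% in siMALAT1, 1.33% in siPCAT1, 1.88% in siRAD21 and 1.97% in siSMARCA4. The library ranks followed the same order gene by gene. For 36 of the 39 effectors siFOXM1 held the highest of the 13 levels, the exceptions being TRIM25, MX1 and EPSTI1, and among filtered genes of all kinds siFOXM1 was highest for 10.4%. In 27 effectors that passed the filter siFOXA1 was second to it, against 2.22% of all genes. UBE2L6, TRIM22 and RTP4, which passed the filter only through these libraries, are among the 27.

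In the other 10 knockdowns, the counts of effectors at least 2-fold higher were small. There were 8 in siBRCA2, against 0.767% of all genes, 5 in siBRCA1 (0.45%), 4 in siRAD21 (0.906%), 3 in siCTCF (1.27%), 3 in siEZH2 (0.894%) and 3 in siKDM1A (0.754%). There was 1 each in siEED (0.817%), siPCAT1 (0.323%) and siSMARCA4 (0.494%) and 0 in the library labelled siMALAT1 (0.387%). The median difference over the 39 listed effectors lay between -0.080 in siEED and 0.22 in siBRCA2 in these 10 libraries. The counts depend on the pseudocount. With 0.1 in place of 1, siCTCF had 8, siEZH2 and siRAD21 7 each and siKDM1A 6.

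**Figure D1:**
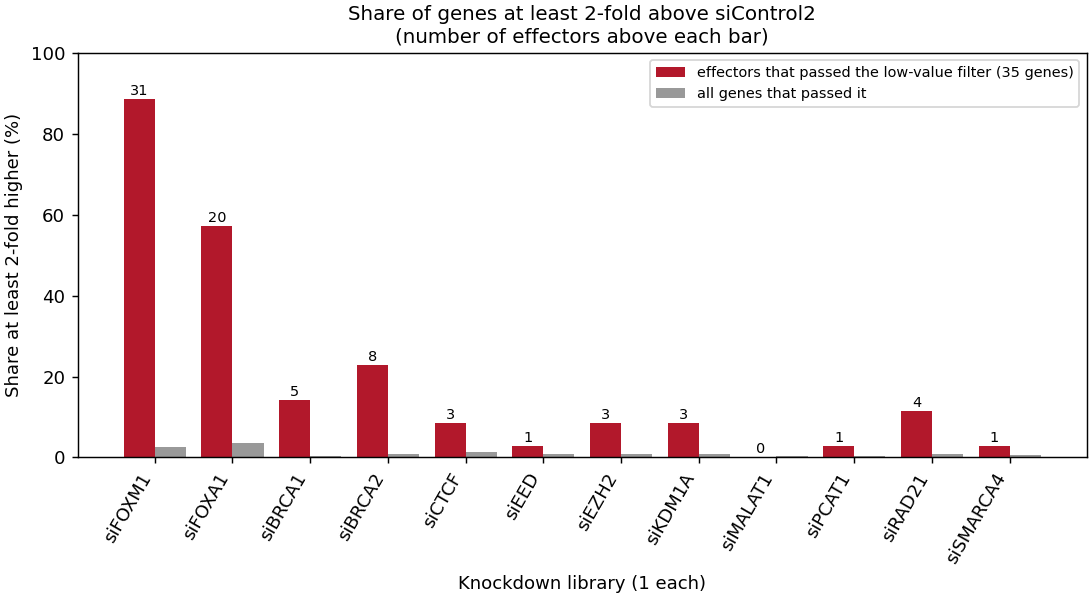
Share of effectors (red, 35 genes that passed the low-value filter) and of all genes that passed it (grey) at least 2-fold above siControl2, in percent, for each knockdown library. The number above each red bar is the count of effectors: 31 in siFOXM1, 20 in siFOXA1 and at most 8 in the others.

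Of the effectors that passed the filter, 23 were at least 2-fold higher in siFOXM1, siFOXA1 or both and in none of the other 10 knockdowns, a pattern held by 3.6% of all genes. In 11 of these the difference was reached in both libraries (0.558% of all genes), in 11 in siFOXM1 alone (0.982%) and in 1, TRIM25, in siFOXA1 alone (2.06%). UBE2L6, TRIM22 and RTP4, which passed the filter only through siFOXM1 and siFOXA1, are among the 23 and the 11 in siFOXM1 alone. That place depends on the pseudocount, since with 0.1 they differed by 2.28, 2.32 and 3.06 in siFOXA1. They then left the 23 as well, as did UBA7 and HELZ2. TRIM22 was past 2-fold in siKDM1A (1.42), siCTCF (1.37) and siBRCA2 (1.10) with 0.1. RTP4 was so in siPCAT1 (1.45) and siBRCA2 (1.31), and UBE2L6 in siPCAT1 (1.31). With the pseudocount of 1, a further 9 filtered effectors were 2-fold higher in 1 or more of the other 10 knockdowns, as 3.83% of all genes were. These 9 were IFI6, RARRES3, ISG15, IFI27, RSAD2, BST2, DDX60, IFI44 and ISG20, and each was also 2-fold higher in siFOXM1. Of them IFI6, RARRES3, ISG15 and IFI27 were 2-fold higher in 5 or more of the 12 knockdowns, as 0.437% of all genes were. This group too depends on the pseudocount. With 0.1, IFI44, DDX60, RSAD2 and TRIM22 were also 2-fold higher in 5 or more. The 3 filtered effectors MX1, SAMHD1 and SP100 were 2-fold higher in none, like 92.6% of all genes. No effector was 2-fold higher in one of those 10 libraries without being so in siFOXM1 or siFOXA1, as 2.39% of all genes were.

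**Figure D2:**
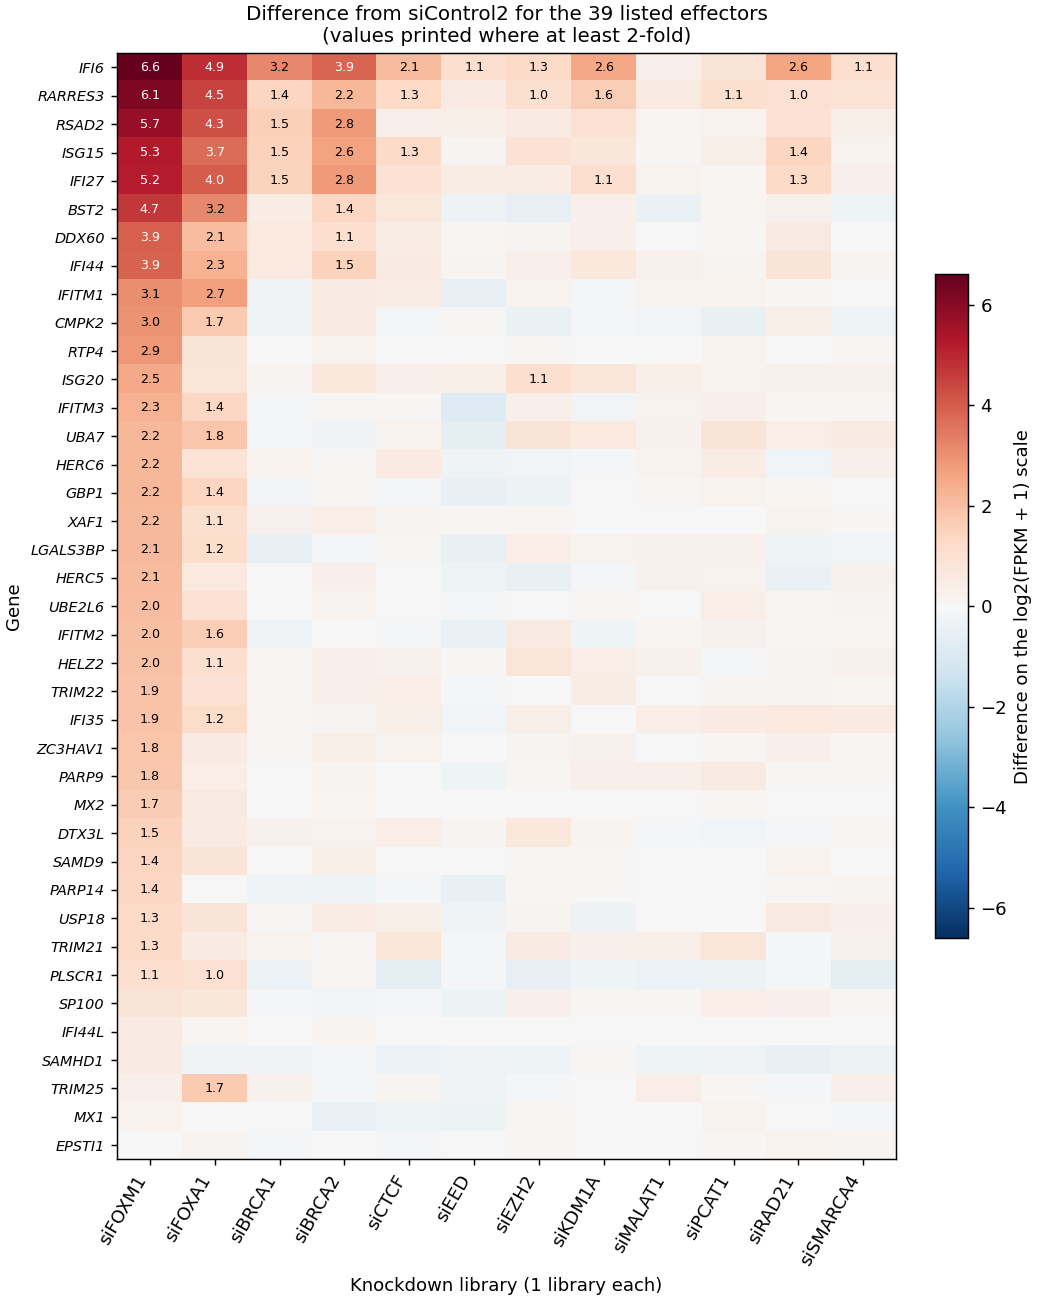
Difference from siControl2 on the log2(FPKM + 1) scale for the 39 listed effectors (rows, ordered by siFOXM1) in the 12 knockdown libraries (columns, 1 library each), with values printed where at least 2-fold. The first 2 columns hold most printed values, and below them in size siBRCA2 and siBRCA1 share the same leading genes, from IFI6 at 3.85 and 3.20.

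The control of the labels touches these counts. FOXM1 was at 0.474 FPKM in siFOXM1, 1.75 in siFOXA1 and 2.47 in siEZH2, between 4.83 and 15.6 in the other 9 knockdowns, and 20.1 in siControl2. The siEZH2 library, with the next lowest FOXM1 level, had 3 effectors 2-fold higher, or 7 with a pseudocount of 0.1. Any relation between the FOXM1 level and the effector counts was not tested. FOXA1 was at 119.6 FPKM in siFOXM1, 60.6 in siFOXA1, 91.2 to 175 in the other 10 knockdowns and 137 in siControl2. CTCF, EED, EZH2, KDM1A, RAD21 and SMARCA4 were each lowest in the library labelled with them. For EED this was 4.13 FPKM, against 8.94 in siControl2, a difference of -0.95. BRCA1 was at 1.83 FPKM in siBRCA1, against 11.1 in siControl2, but lower in siFOXM1 (1.36) and siFOXA1 (1.31). PCAT1 is not given here. In the library labelled siBRCA2, BRCA2 was at 1.23 FPKM, against 3.25 in siControl2, but 8 other knockdowns were lower still. The library labelled siMALAT1 had 21.7 FPKM of MALAT1, against 16.4 in siControl2, which goes against that label. Without the siBRCA2 and siMALAT1 libraries, 6 effectors were higher in further knockdowns and 26 only in siFOXM1, siFOXA1 or both.

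IFI6 and IFI27 encode small hydrophobic membrane proteins of a shared family, and both were among the effectors higher in many libraries. IFI6 stood at 622 FPKM in siFOXM1 and 197 in siFOXA1. In the other knockdowns it was at 59.9 FPKM in siBRCA1, 94.98 in siBRCA2, 27.4 in siCTCF, 13.4 in siEED, 15.1 in siEZH2, 38.2 in siKDM1A, 7.35 in siMALAT1, 11.1 in siPCAT1, 38.8 in siRAD21 and 13.1 in siSMARCA4, and siControl2 was lowest at 5.65. Thus 10 of the 12 knockdowns were at least 2-fold above the control, with differences from 1.09 in siSMARCA4 to 6.55 in siFOXM1, while siPCAT1 (0.87) and siMALAT1 (0.33) were not. When each library was set against the median of the remaining 11 knockdowns, the differences turned to -0.47 in siCTCF, -1.45 in siEED, -1.28 in siEZH2 and -1.47 in siSMARCA4.

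IFI27 was at 50.1 FPKM in siFOXM1 and 21.7 in siFOXA1. Its level was 2.94 FPKM in siBRCA1, 8.92 in siBRCA2, 1.75 in siCTCF, 1.0003 in siEED, 1.01 in siEZH2, 2.07 in siKDM1A, 0.670 in siMALAT1, 0.579 in siPCAT1, 2.46 in siRAD21, 0.815 in siSMARCA4 and 0.424 in siControl2. The control was again the lowest, and 6 knockdowns were at least 2-fold higher, siKDM1A (1.11) being nearest to that line and siCTCF (0.95) just below it. With a pseudocount of 0.1, siCTCF (1.82), siEZH2 (1.09) and siEED (1.07) passed that line too. Against the median of the remaining 11 knockdowns, siBRCA1 (0.52), siKDM1A (0.16) and siRAD21 (0.33) were under it. XAF1, an antagonist of the apoptosis inhibitor XIAP, differed by 2.16 in siFOXM1 and 1.07 in siFOXA1. Its highest level in the other knockdowns was 1.96 FPKM, against 1.21 in siControl2.

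RARRES3, a phospholipase and acyltransferase gene first described as retinoid-responsive, had the second largest difference in siFOXM1. It was at 135 FPKM in siFOXM1 and 41.3 in siFOXA1. The other knockdowns had 4.16 FPKM in siBRCA1, 7.74 in siBRCA2, 3.73 in siCTCF, 1.85 in siEED, 2.94 in siEZH2, 4.89 in siKDM1A, 1.96 in siMALAT1, 2.9995 in siPCAT1, 2.87 in siRAD21 and 2.58 in siSMARCA4, against 0.927 in siControl2. At least 2-fold higher were 9 knockdowns, and siPCAT1 (1.05), siEZH2 (1.03) and siRAD21 (1.01) only just so. Against the median of the other 11 knockdowns these 3 turned to -0.24, -0.26 and -0.29. RARRES3 was the single effector that was 2-fold higher in siPCAT1 on the log2(FPKM + 1) scale. With a pseudocount of 0.1, UBA7 (1.05), UBE2L6 (1.31) and RTP4 (1.45) were so too. RARRES3 was then past 2-fold in siSMARCA4 (1.39) and, only just, in siMALAT1 (1.002) as well.

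Among the genes of nucleotide and RNA metabolism, RSAD2, which encodes the antiviral radical SAM enzyme viperin, stood at 104 FPKM in siFOXM1 and 36.5 in siFOXA1. It was at 4.75 FPKM in siBRCA1, 13.003 in siBRCA2, 1.47 in siCTCF, 1.59 in siEED, 1.82 in siEZH2, 2.88 in siKDM1A, 1.16 in siMALAT1, 1.29 in siPCAT1, 2.75 in siRAD21, 1.58 in siSMARCA4 and 0.967 in siControl2. The difference was 5.74 in siFOXM1, 4.25 in siFOXA1, 2.83 in siBRCA2 and 1.55 in siBRCA1, and siKDM1A (0.98) lay just below 2-fold. With a pseudocount of 0.1, RSAD2 was past 2-fold in siKDM1A (1.48) and siRAD21 (1.42) too.

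DDX60, a helicase linked to RNA sensing, was at 18.7 FPKM in siFOXM1, 4.31 in siFOXA1 and 1.73 in siBRCA2, against 0.279 in siControl2. On the log2(FPKM + 1) scale these 3 were the libraries at least 2-fold higher. DDX60 was at 0.998 FPKM in siBRCA1, 0.947 in siRAD21 and 0.765 in siCTCF. With a pseudocount of 0.1 it was past 2-fold there too (1.53, 1.47 and 1.19). ISG20, an exonuclease that degrades RNA, had a different set. It was at 49.6 FPKM in siFOXM1, 14.3 in siFOXA1 and 17.8 in siEZH2, against 7.83 in siControl2, so that siEZH2 (1.09) but not siFOXA1 (0.79) was past 2-fold. Against the median of the remaining 11 knockdowns, ISG20 in siEZH2 (0.71) and DDX60 in siBRCA2 (0.77) were under 2-fold. ISG20 was the one effector of the 9 whose highest level among the other 10 knockdowns was not in siBRCA2.

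The other genes of this role, apart from SAMHD1, passed 2-fold in siFOXM1 and siFOXA1 or in siFOXM1 alone. CMPK2, a mitochondrial nucleotide kinase, differed by 2.98 in siFOXM1 and 1.71 in siFOXA1, and the helicase gene HELZ2 by 1.95 and 1.10. With a pseudocount of 0.1, HELZ2 was just past 2-fold in siEZH2 (1.01) too. ZC3HAV1, which encodes the zinc finger protein ZAP that binds CpG-rich viral RNA, was at 40.9 FPKM in siFOXM1 and 16.5 in siFOXA1. The other 10 knockdowns had 10.6 to 14.6 FPKM of it and siControl2 10.9. SAMD9, a restriction factor for poxviruses, was under the filter, at 1.81 FPKM in siFOXM1, 0.885 in siFOXA1 and 0.0357 in siControl2. It was at 0.352 FPKM in siBRCA2 and 0.210 in siRAD21. With a pseudocount of 0.1 it was past 2-fold in siFOXA1 (2.86), siBRCA2 (1.74) and siRAD21 (1.19) as well as siFOXM1 (3.82). SAMHD1, a hydrolase of deoxynucleotides, was at 18.0 FPKM in siFOXM1 and 10.4 in siFOXA1, against 12.1 in siControl2. Its siFOXA1 difference was -0.21, and no library was 2-fold from the control.

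**Figure D3:**
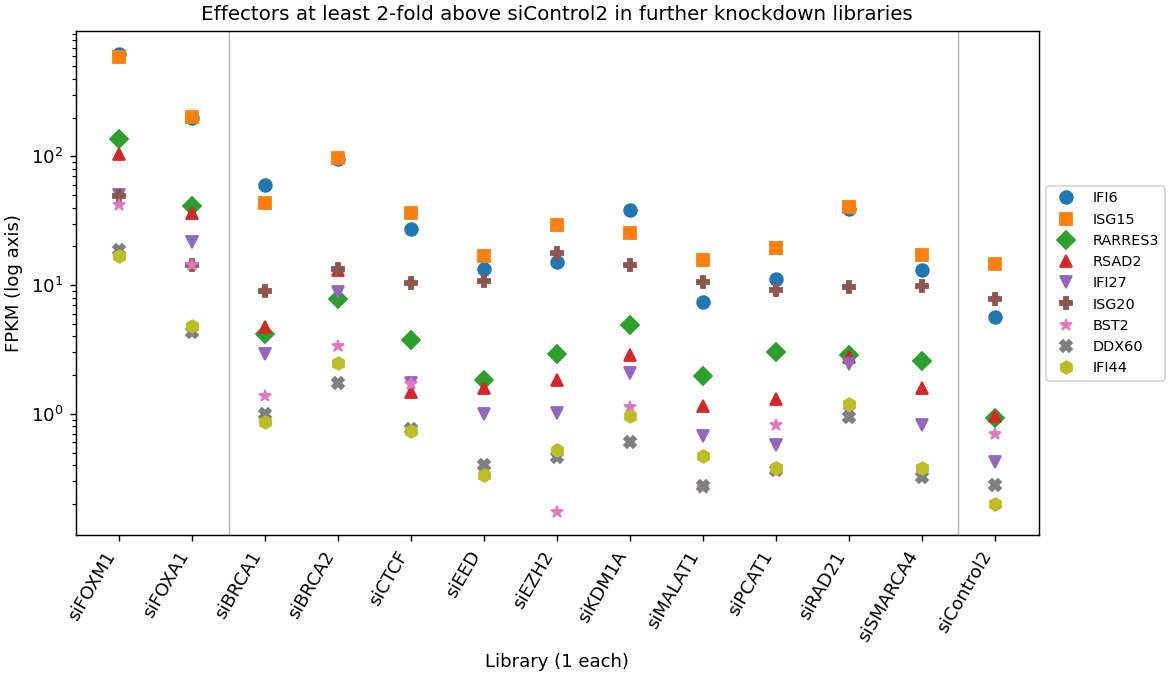
FPKM on a log axis of the 9 effectors at least 2-fold above siControl2 in 1 or more of the other 10 knockdowns, in each of the 13 libraries (1 library each, siControl2 at the right). IFI6 and ISG15 lie highest, at 622 and 595 FPKM in siFOXM1, and in 8 of the 9 genes siBRCA2 is the highest of the 10 libraries in the middle.

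ISG15 conjugation uses an activating enzyme (UBA7), a conjugating enzyme (UBE2L6), ligases (mainly HERC5) and a protease that removes it (USP18). ISG15 itself was at 595 FPKM in siFOXM1 and 201 in siFOXA1. The other levels were 43.3 FPKM in siBRCA1, 96.7 in siBRCA2, 36.5 in siCTCF, 17.0 in siEED, 29.1 in siEZH2, 25.4 in siKDM1A, 15.6 in siMALAT1, 19.3 in siPCAT1, 40.5 in siRAD21 and 17.2 in siSMARCA4, with 14.6 in siControl2. At least 2-fold higher were 6 knockdowns, down to siCTCF (1.27), and siEZH2 (0.95) fell just short. Against the median of the remaining 11 knockdowns the difference was 0.56 in siBRCA1, 0.32 in siCTCF and 0.46 in siRAD21, so these 3 were no longer past 2-fold.

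On the log2(FPKM + 1) scale, the enzymes were 2-fold higher in siFOXM1 or siFOXA1 only. UBA7 was at 14.1 FPKM in siFOXM1 and 10.6 in siFOXA1, against 2.26 in siControl2. In the other knockdowns UBA7 ran from 1.13 FPKM in siEED to 4.97 in siEZH2. With a pseudocount of 0.1 it was past 2-fold in siEZH2 (1.10) and siPCAT1 (1.05) too. HERC5 was at 34.0 FPKM in siFOXM1 and 12.3 in siFOXA1, against 7.35 in siControl2, and its relative HERC6 at 39.4, 15.6 and 7.88. For both HERC genes the siFOXA1 difference (0.67 and 0.91) stayed under 2-fold. UBE2L6 was at 3.87 FPKM in siFOXM1 and 1.26 in siFOXA1 but at no more than 0.594 FPKM in any other library. That level was in siPCAT1, against 0.180 in siControl2, a difference of 1.31 with a pseudocount of 0.1. USP18, which also dampens signalling at the type I receptor, was at 28.4 FPKM in siFOXM1 and 21.0 in siFOXA1, against 11.05 in siControl2. It has a near-identical copy in the genome, so its level is uncertain.

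TRIM25, a ubiquitin ligase that acts on the RNA sensor RIG-I, had the opposite order. It was at 48.2 FPKM in siFOXM1 and 130.3 in siFOXA1, between 32.3 and 52.5 in the other 10 knockdowns, and 38.4 in siControl2. The siFOXA1 level stood apart from all 12 other libraries, whereas the siFOXM1 level lay within their range. It was the only listed effector that was 2-fold higher in siFOXA1 alone, and the only one 2-fold lower in siFOXM1 than in siFOXA1 (-1.42).

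Of the proteins that act at membranes, the 5 listed were all at least 2-fold higher in both siFOXM1 and siFOXA1. BST2, or tetherin, which holds budding virus at the cell surface, was at 41.8 FPKM in siFOXM1, 14.3 in siFOXA1 and 3.40 in siBRCA2, against 0.695 in siControl2, and was 2-fold higher in these 3 libraries. With a pseudocount of 0.1 it was so in siCTCF too. In siEED, siEZH2, siMALAT1 and siSMARCA4 its level was below the control, down to 0.172 FPKM in siEZH2. IFITM1, IFITM2 and IFITM3 encode related proteins that block virus fusion. IFITM1 was at 50.8 FPKM in siFOXM1 and 38.9 in siFOXA1, against 3.27 to 8.19 in the other knockdowns and 5.18 in siControl2.

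IFITM3 was at 173 FPKM in siFOXM1 and 92.3 in siFOXA1, against 34.7 in siControl2, and IFITM2 at 12.4, 9.31 and 2.39 FPKM. In siEED, IFITM3 was at 18.8 FPKM, a difference of -0.85. IFITM2 and IFITM3 are close copies of each other, so the division of reads between them is uncertain. PLSCR1, a phospholipid scramblase, was the effector nearest above the 2-fold line in both libraries, at 1.12 in siFOXM1 and 1.02 in siFOXA1. The effectors nearest below it were SP100 in siFOXM1 (0.86) and TRIM22 in siFOXA1 (0.96).

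The large GTPases listed were GBP1, MX2 and MX1, and they differed in pattern. GBP1, a guanylate-binding protein, was at 6.87 FPKM in siFOXM1 and 3.67 in siFOXA1, with 0.262 to 1.05 in the other knockdowns and 0.750 in siControl2. MX2, which restricts retroviruses, was at 2.23 FPKM in siFOXM1 and 0.544 in siFOXA1, at most 0.0939 elsewhere and 0.00605 in siControl2. It was under the filter. MX1, which restricts influenza and other RNA viruses, was at 1.497 FPKM in siFOXM1 and 1.11 in siFOXA1, with 0.605 to 1.53 in the other knockdowns and 1.15 in siControl2. Its siFOXM1 level lay inside the range of the other libraries, although 2 of its 3 promoter windows held the response element core.

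PARP9, DTX3L and PARP14 encode ADP-ribosylation and ubiquitin ligase proteins, of which PARP9 and DTX3L form a complex. All 3 were at least 2-fold higher in siFOXM1 and in no other library. PARP9 was at 76.8 FPKM in siFOXM1 and 29.1 in siFOXA1, against 21.4 in siControl2, and DTX3L at 33.2, 16.6 and 10.99 FPKM. PARP14 was at 34.9 FPKM in siFOXM1 but at 12.5 in siFOXA1, against 12.996 in siControl2. The siFOXA1 levels of all 3 lay within the range of the other 10 knockdowns.

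Of the nuclear and TRIM proteins, TRIM21, a cytosolic antibody receptor, was at 29.1 FPKM in siFOXM1 and 17.1 in siFOXA1, against 11.4 in siControl2. Its levels in siCTCF (20.9), siPCAT1 (20.4) and siEZH2 (17.3) exceeded that in siFOXA1. TRIM22 was at 3.40 FPKM in siFOXM1 and 1.30 in siFOXA1, against 0.179 in siControl2. It was at 0.647 FPKM in siKDM1A, 0.622 in siCTCF and 0.4996 in siBRCA2. With a pseudocount of 0.1, TRIM22 was past 2-fold in these libraries too (1.42, 1.37 and 1.10). SP100, a component of PML nuclear bodies, was at 23.5 FPKM in siFOXM1 and 21.6 in siFOXA1, with 9.71 to 17.1 in the other knockdowns and 12.5 in siControl2. Both libraries were above all others for SP100, but neither was 2-fold higher than the control.

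**Figure D4:**
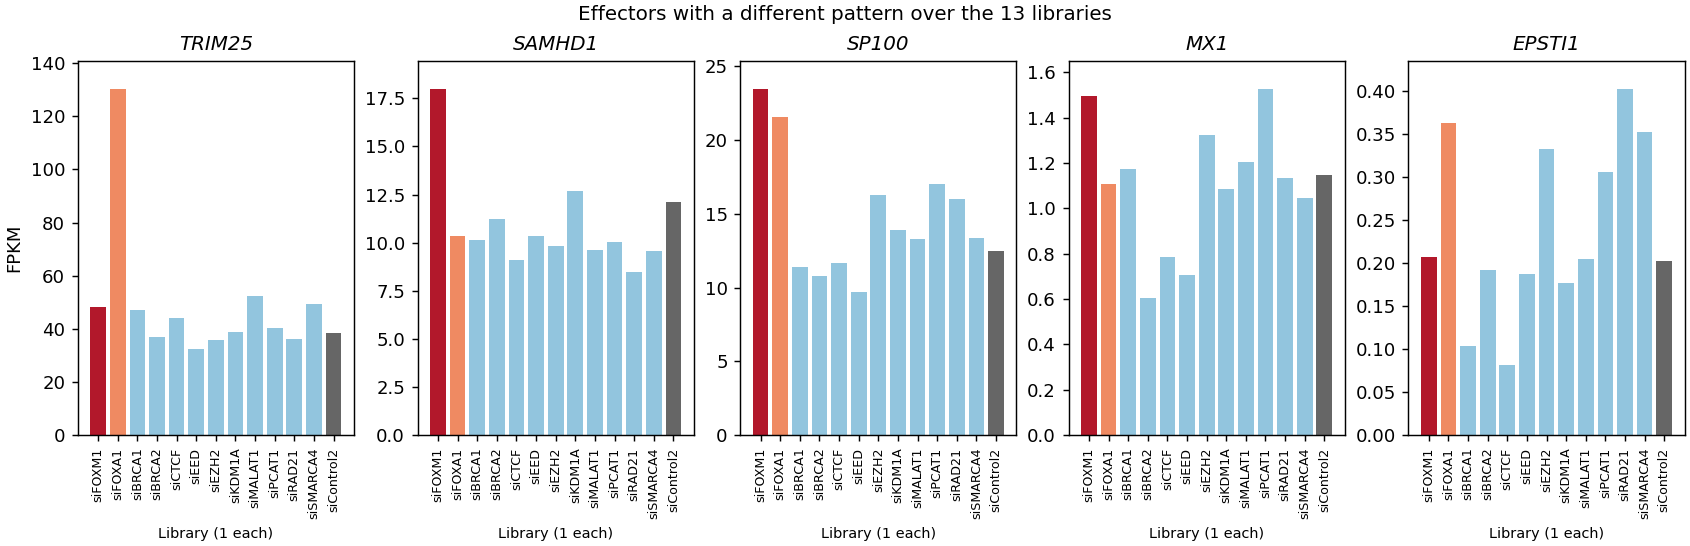
FPKM of TRIM25, SAMHD1, SP100, MX1 and EPSTI1 in the 13 libraries, 1 library per bar, siFOXM1 dark red, siFOXA1 orange, the other 10 knockdowns light blue and siControl2 grey; each panel has its own scale from 0. TRIM25 is high in siFOXA1 at 130.3 FPKM, and MX1 and EPSTI1 stay at or below 1.53 and 0.402 FPKM.

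Among the remaining effectors, IFI44 was at 16.9 FPKM in siFOXM1, 4.78 in siFOXA1 and 2.50 in siBRCA2, against 0.1995 in siControl2. In the other knockdowns it ran from 0.338 FPKM in siEED to 1.20 in siRAD21, all above the control. With a pseudocount of 0.1, IFI44 was past 2-fold in siRAD21 (2.12), siKDM1A (1.83), siBRCA1 (1.68), siCTCF (1.48) and siEZH2 (1.06) too. IFI35 was at 41.4 FPKM in siFOXM1 and 25.3 in siFOXA1, against 10.4 in siControl2. LGALS3BP, a secreted galectin-binding glycoprotein, was at 12.4, 5.84 and 2.07 FPKM in the same 3 libraries. RTP4, a receptor transport protein, was at 6.37 FPKM in siFOXM1 and 0.816 in siFOXA1, at most 0.201 in the other knockdowns and 0.0101 in siControl2. With a pseudocount of 0.1, RTP4 was past 2-fold in siPCAT1 (1.45) and siBRCA2 (1.31) too. EPSTI1 was at 0.207 FPKM in siFOXM1 and 0.362 in siFOXA1, against 0.203 in siControl2, and reached no more than 0.402 FPKM in any library.

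The 2 libraries with the most effectors past 2-fold were also compared with each other, without the control. Of the 39 effectors, 37 were higher in siFOXM1 than in siFOXA1, the exceptions being TRIM25 and EPSTI1. The median siFOXM1 minus siFOXA1 difference was 0.96 on the log2(FPKM + 1) scale, beside -0.0064 over all filtered genes. At least 2-fold higher in siFOXM1 were 18 effectors that passed the filter, against 3.03% of all genes, and 1 was at least 2-fold lower, against 2.57%. Among the 18, UBE2L6 and RTP4 passed the filter only through their levels in these libraries. The differences ran from -1.42 for TRIM25 to 2.02 for RTP4. For IFITM1 (0.38), IFITM2 (0.37), UBA7 (0.39), USP18 (0.42), PLSCR1 (0.10) and SP100 (0.12) the pair of libraries were close. In the 9 effectors higher in further libraries, the siFOXM1 FPKM was between 2.31 times (IFI27) and 4.34 times (DDX60) the siFOXA1 FPKM.

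**Figure D5:**
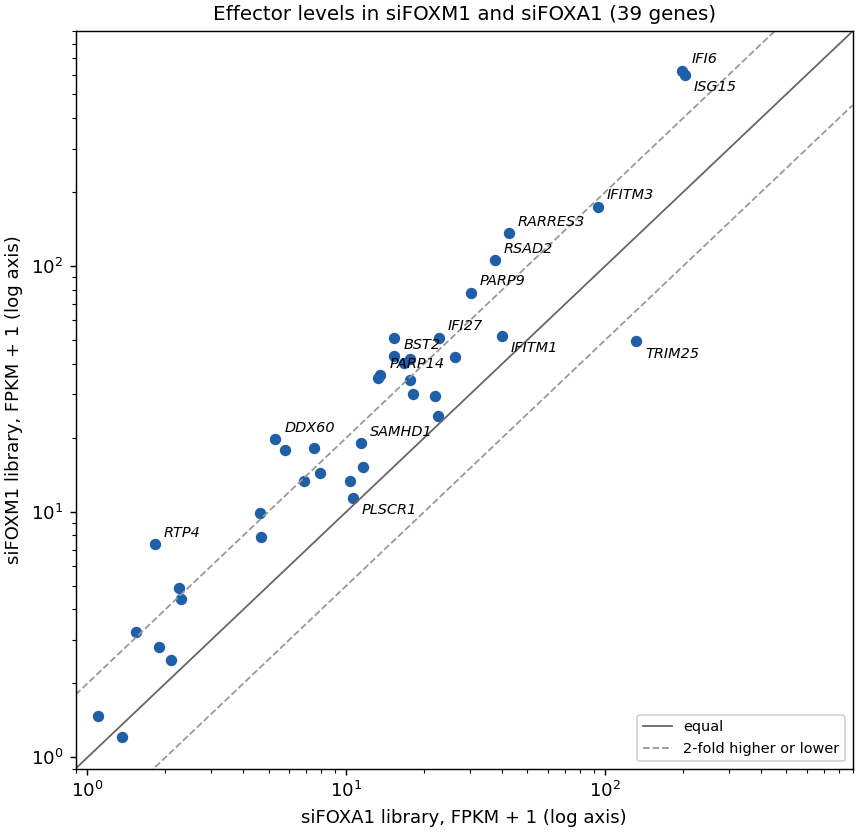
Levels of the 39 listed effectors in siFOXM1 (vertical) and siFOXA1 (horizontal), as FPKM + 1 on log axes, 1 library each; the solid line marks equal levels and the dashed lines a 2-fold difference. Most points lie above the line of equal levels, and TRIM25 lies below it, at 48.2 FPKM in siFOXM1 and 130.3 in siFOXA1.

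Among the other 10 knockdowns, siBRCA2 held the highest level for 17 of the 39 effectors. Over the genes that passed the filter these were 14 effectors, against 11.8% of all genes. They included 8 of the 9 that were higher in further libraries. The siControl2 library was the lowest of the 13 for 7 filtered effectors (IFI6, ISG15, IFI27, RSAD2, RARRES3, IFI44 and ISG20), against 4.84% of all genes. Effectors whose level in the control was the lowest of all are above it in every knockdown, so their differences share that one value.

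Several effectors are neighbours in the RefSeq order of protein-coding genes, with no other coding gene between them. PARP9 and DTX3L on chromosome 3 start in opposite directions, and their siFOXM1 differences were 1.80 and 1.51. CMPK2 and RSAD2 on chromosome 2 also start in opposite directions but differed by 2.98 and 5.74 in siFOXM1, and by 0.58 and 2.83 in siBRCA2. HERC6 and HERC5 on chromosome 4 were alike at 2.18 and 2.07 in siFOXM1. IFI44L and IFI44 on chromosome 1 lay at different levels. IFI44 was at 16.9 FPKM in siFOXM1, against 0.1995 in siControl2, and IFI44L at 0.473 FPKM in siFOXM1, against 0.00273 in siControl2. Both were thus higher in siFOXM1. MX2 and MX1 on chromosome 21 differed by 1.68 and 0.22 in siFOXM1. The sources used here do not say whether counting used strand, so reads of overlapping neighbours may not have been told apart.

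The rest of the pathway is given from other lists. All 4 listed interferon ligand genes were at least 2-fold higher in siFOXM1, and IFNL1, a type III interferon, was at 15.7 FPKM in siFOXM1 and 3.20 in siFOXA1, against 0.0145 in siControl2. IFNB1 was at 4.93 FPKM in siFOXM1 and 0.690 in siFOXA1, against 0.0870 in siControl2. In the other 10 knockdowns 0 of the 4 were 2-fold higher on the log2(FPKM + 1) scale, where differences at such low levels come out too small. IFNL1 was at 0.408 FPKM in siBRCA2, 0.225 in siKDM1A and 0.220 in siRAD21, all above its siControl2 level. In siCTCF, siEED and siPCAT1 it was below that level. Of 9 receptor and kinase genes, 0 in siFOXM1 and 2 in siFOXA1 were 2-fold higher.

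Among the signalling factors, IRF9 was at 81.7 FPKM in siFOXM1 and 17.3 in siFOXA1, against 5.02 to 7.40 in the other knockdowns and 4.28 in siControl2. STAT2 was at 30.1 FPKM in siFOXM1 and 24.2 in siFOXA1, against 14.9 in siControl2, which is under 2-fold in both. IRF7 was at 26.4, 14.8 and 6.71 FPKM in the same 3 libraries, and IRF1 at 9.87, 5.27 and 3.17. The IFIT and OAS genes, 8 in number, were 2-fold higher in 8 cases in siFOXM1, 6 in siFOXA1, 5 in siBRCA2, 4 each in siBRCA1 and siRAD21, 3 each in siCTCF, siEZH2 and siKDM1A, and 0 in the other 4. Of this list OAS3 was at least 2-fold lower in siEED (-1.05), siEZH2 (-1.35) and siSMARCA4 (-1.06). For the 9 sensors and adaptors the counts were 4 in siFOXM1, 3 in siFOXA1 and 0 in each other knockdown.

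The cell type label was checked against markers. Of 9 luminal prostate markers, KLK2 and KLK3 did not exceed 1.70 and 0.524 FPKM, and the other 7, with HOXB13 and KRT8 among them, were between 12.5 and 516 FPKM in all libraries. Of 8 immune markers 3 had a row, and their summed level was 16.1 FPKM in siFOXM1 and 13.3 in siFOXA1, 8.96 to 14.0 in the other knockdowns and 9.59 in siControl2. Most of it was CD68 and LYZ, and the leukocyte marker PTPRC was at 1.10 FPKM in siFOXM1, 0.1004 in siFOXA1 and 0.946 in siControl2. In siRAD21, where 4 effectors were 2-fold higher, PTPRC was at 3.14 FPKM, a difference of 1.09. Rows were present for 3 of 6 fibroblast, 1 of 4 endothelial (PECAM1) and 1 of 3 basal markers (KRT14). The summed levels of those listed did not exceed 3.94, 1.01 and 0.830 FPKM in any library. KRT14 was at 0.830 FPKM in siFOXA1 and 0.128 in siFOXM1, at most 0.0316 in the other 10 knockdowns and 0.00459 in siControl2. The part of other cell types in the effector levels was not tested. Entries at 0 numbered between 1528 and 1821 per library, and read depth is unknown.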

How the data were processed

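RNA from 13 libraries was sequenced on a HiSeq instrument after TruSeq preparation, per the labels' protocols. TopHat, Cufflinks and the build hg19 are named, without versions, per the submitters' processing notes. No strand setting is stated. The authors deposited log2 values of FPKM for 22613 entries per library. The lowest value was the log2 of 0.1, so values were read as log2(FPKM + 0.1), an offset no label states. The sorted values of the libraries differed by at most 0.0562, so they had been brought to a common distribution by a step that no label records. No counts were used here, so read depth is unknown, and no interval for counting error can be given.

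Values were turned back to FPKM, set to 0 below 1e-09, and expressed as log2(FPKM + 1) with Python 3.11.15, numpy 2.4.6 and pandas 2.3.3. For background shares, entries with a mean of at least 0.5 FPKM were kept and small RNA symbols left out, giving 15780 genes. The reading and comparing steps were tested on simulated data. The members and lists were chosen with earlier results of these data known. All 41 members are named or counted. Levels in all 13 libraries are given for the 3 members with the largest siFOXM1 difference and those past 2-fold in the most knockdowns, a rank at which ISG15 and IFI27 were tied. Alternatives tried were no filter, a pseudocount of 0.1, quantile normalization, differences centred on their median and the median of the other 11 knockdowns as the reference. A filter that ignored siFOXM1 and siFOXA1, and leaving out the libraries labelled siBRCA2 and siMALAT1, were chosen after seeing the data. Promoter sequences are from RefSeq (GRCh38.p14); the files hold no coordinates.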

Additional observations from a re-analysis of the deposited data

How the results depend on the processing

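No paired analysis was possible because each group had 1 library, and leaving out a replicate was not possible for the same reason. With differences centred on their median and with no filter on low values, every count of effectors at least 2-fold higher stayed within 1.5 times its reported value. The same held for the filter over the 11 libraries other than siFOXM1 and siFOXA1 and, for the 2 counts it applies to, without the siBRCA2 and siMALAT1 libraries. Quantile normalization changed no count, but the values already shared 1 distribution, so it tests nothing. The siFOXM1 count ran from 28 to 33, the siFOXA1 count from 17 to 23, and the count higher only in siFOXM1, siFOXA1 or both from 18 to 26 over all alternatives. These ranges mix different numbers of effectors. The 33 is of the 39 listed with no filter, and the filter over the 11 libraries leaves out UBE2L6, TRIM22 and RTP4. With a pseudocount of 0.1, the counts were 8 in siCTCF, 2 in siEED, 7 in siEZH2, 6 in siKDM1A, 1 in siMALAT1, 4 in siPCAT1, 7 in siRAD21 and 2 in siSMARCA4. The count of filtered effectors higher in further libraries was then 14, the reported 9 and 5 more (UBA7, UBE2L6, HELZ2, TRIM22 and RTP4). IFI44, DDX60, RSAD2 and TRIM22 then joined the effectors past 2-fold in 5 or more knockdowns. SAMD9 and IFI44L, under the filter and so not counted, were also past 2-fold in siBRCA2 with that pseudocount (1.74 and 1.11). Against the median of the other 11 knockdowns, the counts were 2 in siBRCA1 and 0 in siCTCF, siEED, siEZH2, siKDM1A, siPCAT1, siRAD21 and siSMARCA4. IFI6 turned to -0.47 in siCTCF, -1.45 in siEED, -1.28 in siEZH2 and -1.47 in siSMARCA4, and RARRES3 to -0.26 in siEZH2, -0.24 in siPCAT1 and -0.29 in siRAD21. Of 80 single differences past 2-fold, 56 were still past it under that reference, 7 were below 0, and the cause was not tested. After centring, 78 were still past 2-fold. A smaller pseudocount enlarges a positive difference and a filter leaves it as it is, so neither could end one. Against the median of the other 11 knockdowns the effectors higher in further libraries were 7, without DDX60 and ISG20. At least 2-fold lower were then 3 effectors in siEED, 2 each in siMALAT1 and siSMARCA4 and 1 each in siEZH2 and siPCAT1, and with a pseudocount of 0.1 there was 1 each in siEED, siEZH2 and siMALAT1. With 1 library per group and unknown depth, none of these counts has an error.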
